A study of Drosophila melanogaster with 4 samples.

Results

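Tight runs of TBP peaks are places where 3 or more narrow peaks follow each other along a Drosophila melanogaster chromosome arm. They were chosen by the positions and widths in the deposited peak list, by chaining neighbours separated by less than 1000 bp and keeping chains of at least 3 peaks in which every peak was narrower than 2000 bp. The rule returned 259 runs with 905 peaks, which is 12.4% of the 7303 peaks on the arms 2L, 2R, 3L, 3R, 4 and X and part of a list of 7769 peaks in all. The data come from chromatin immunoprecipitation and sequencing of whole embryos, with 2 libraries of DNA pulled down by a rabbit polyclonal serum against TBP and 2 libraries of input DNA. Both groups carry the same labels, which are strain Exd-GFP-13T, genotype w; PBac{y[+]-attP-3B}VK00033, embryos of 0 to 8 h and unknown sex. Their transgene is a genomic copy of extradenticle with GFP in place of the stop codon. The extraction text of the same samples names a different strain, y; bw cn sp, and an age of 8 to 16 h, and this conflict could not be resolved. Crosslinking is given as 1.8% formaldehyde for 15 min in both groups. All cell types of the embryo are mixed in such chromatin, and the labels do not say whether replicates were separate collections.

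TBP, the TATA-binding protein, binds and bends promoter DNA just upstream of transcription start sites. Within the general factor TFIID it is the subunit that contacts the TATA box, and around it RNA polymerase II and the other general factors assemble. It also serves in complexes of the other nuclear RNA polymerases. In a compact genome such as that of the fly, alternative promoters of a gene, divergent neighbours and clusters of small genes can place several start sites within a few kilobases.

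The rule used the positions and widths of the peaks, and their scores come from the same comparison of immunoprecipitated with input DNA. The list gives 1 score per peak and no value per library. All values are therefore descriptions without a replicate error or a known read depth, and differences between kinds of peaks were not tested. Intervals given for shares of runs treat the runs of this 1 list as independent and carry no error between replicates. The score is the authors' own value on a scale not given in the sources used here, and its zero is unknown. Within the list, scores were compared by rank and given as values, and ratios or sums of scores served to pick runs to name. A ratio of scores also set the limit of an alternative given at the end, and that limit depends on the unknown zero. Positions are on FlyBase release 5. No annotation or sequence of that release was used, so runs are given by position and not by gene.

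Most runs were short. Runs of 3 peaks numbered 177 (68.3%), runs of 4 numbered 47, runs of 5 numbered 26 and runs of 6 numbered 7. The longest runs, of 7 peaks, were both on 2R. A run spanned 953 to 6646 bp with a median of 3053 bp, and the median went from 2777 bp for runs of 3 to 3739 bp for runs of 4 and 4982 bp for runs of 5. Peaks filled 75.03% of the span of the median run, with a range of 46.2% to 94.1%. Together the runs took up 0.847 Mb, of which 0.630 Mb lay under peaks, or 8.98% of all sequence under arm peaks.

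**Figure D1:**
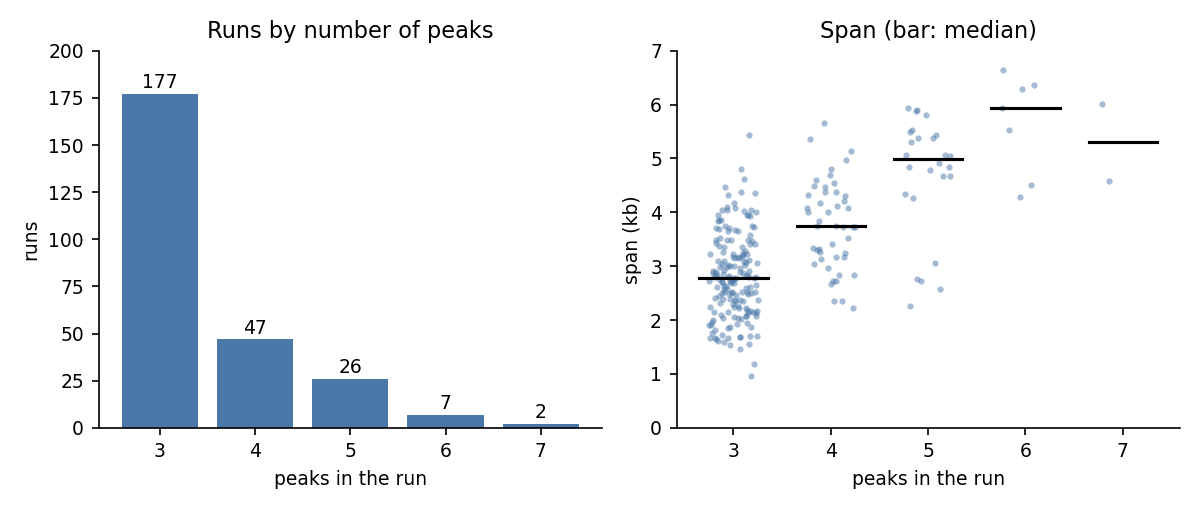
Left, number of runs (vertical axis) by the number of peaks they hold; right, span of each run in kb by number of peaks, with 1 point per run and a bar at the median. The 177 runs of 3 dominate, and the medians go from 2777 bp for 3 peaks to 4982 bp for 5 peaks, with wide overlap between the sizes.

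Runs differed in how many clear peaks they held. In 117 runs (45.2%) exactly 1 peak scored above the arm median of 28.43, in 67 runs 2 peaks did, in 15 runs 3 or more did, and in 60 runs none did. The strongest peak had a median score of 49.27 and the weakest one of 10.07. Middle ranges were 30.9 to 71.38 for the strongest and 8.63 to 12.36 for the weakest peak, and a strongest and a weakest value are set apart by construction. The strongest peak was also the widest in 185 runs (71.4%). Its median width was 1111 bp, against 395 bp for the other peaks of the runs. Score and width rose together over the 905 peaks (Spearman's rho = 0.842), which share libraries and, within a run, a locus.

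The run with the highest score lay on 3R from 25079256 to 25082474. Its middle peak scored 276.47 over 1682 bp, its first peak 23.12 over 947 bp and its last peak 14.86 over 344 bp. Gaps of only 190 and 56 bp separated the middle peak from its weak neighbours. A run of 4 peaks on 3R from 4857430 to 4861803 also had 1 strong peak. Its scores were 14.46, 243.36, 16.05 and 9.63 in order along the arm. On 3R from 8292262 to 8293924 the strongest peak came last, with scores of 11.46, 9.67 and 170.45, while on 3R from 24160519 to 24163386 it came first, with 146.29, 7.42 and 11.44. Each of these 4 runs had 1 peak far above all the others. A strong peak led by position on 3R from 10336932 to 10339508 too (148.44, then 10.67 and 22.25), and on 2R from 18401105 to 18403751 (161.53, then 11.52 and 17.68).

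Other strong runs held a pair of strong peaks with weak ones between or beside them. One of them held 5 peaks on 3R from 7780397 to 7786287. In order along the arm its scores were 10.72, 129.46, 14.77, 226.05 and 10.29. The strong peaks were 1519 and 1586 bp wide and the weak ones 328 to 560 bp. A run of 4 peaks on 3L from 14964610 to 14969080 had the same alternation, with scores of 11.51, 129.46, 13.55 and 138.49. Only 20 of the 259 runs (7.72%) held 2 peaks above the upper quartile of arm scores, 55.8, and none held more than 2. A further 90 runs held 1 such peak and 149 held none.

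**Figure D2:**
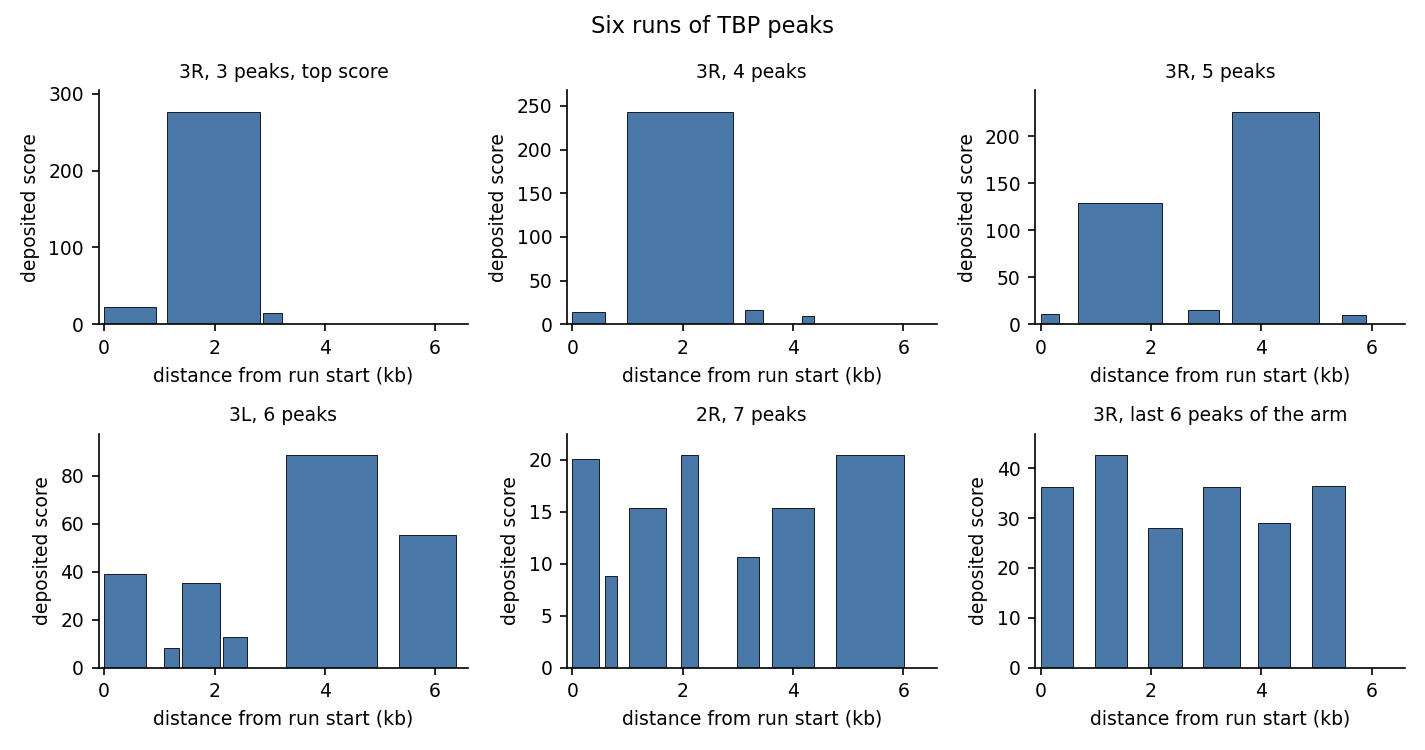
Deposited score of each peak (vertical axis, from 0, scaled separately in each panel) against distance in kb from the start of its run, with bar width equal to peak width. The upper panels show runs on 3R with top scores of 276.47, 243.36 and 226.05; the lower panels show runs of 6 and 7 peaks, including the last 6 peaks of 3R, whose bars are nearly equal in width and spacing.

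In the 177 runs of 3 the strongest peak was in the middle in fewer runs than at either end, but the interval of that share included an even split. It was the first peak along the arm in 67 of 177 runs, the middle peak in 47 and the last in 63, which is 37.9%, 26.6% and 35.6%, where an even split would give 33.3% each. The 95% exact binomial interval of the middle share, 20.2% to 33.7%, includes that value. The weakest peak was the middle one in 83 runs (46.9%, interval 39.4% to 54.5%) and each of the end peaks in 47 runs (26.6%). These intervals treat runs as independent. Scores dipped in the middle in 83 runs and rose to the middle in 47, which restates the counts of weakest and strongest middle peaks. They fell along the arm in 24 runs and rose along it in 23. Median scores by place were 21.88, 14.91 and 20.44, and median widths 646, 469 and 583 bp. The middle ranges overlapped widely, at 12.37 to 42.91 for the first, 10.42 to 32.58 for the middle and 12.77 to 40.58 for the last peak.

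Looser sets of 3 peaks, chosen after the runs had been described, were set beside them. These 99 sets also had peaks under 2000 bp, but both gaps between 1000 and 5000 bp. The strongest peak was first in 32, in the middle in 34 and last in 33. The interval of the middle share was 25.1% to 44.6%, which overlaps that of the runs of 3. Median scores by place were 29.24, 24.88 and 33.01, and median widths 792, 657 and 809 bp. In these medians the middle place was lowest, as in the runs of 3. The place of the weakest peak was not counted in the looser sets.

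**Figure D3:**
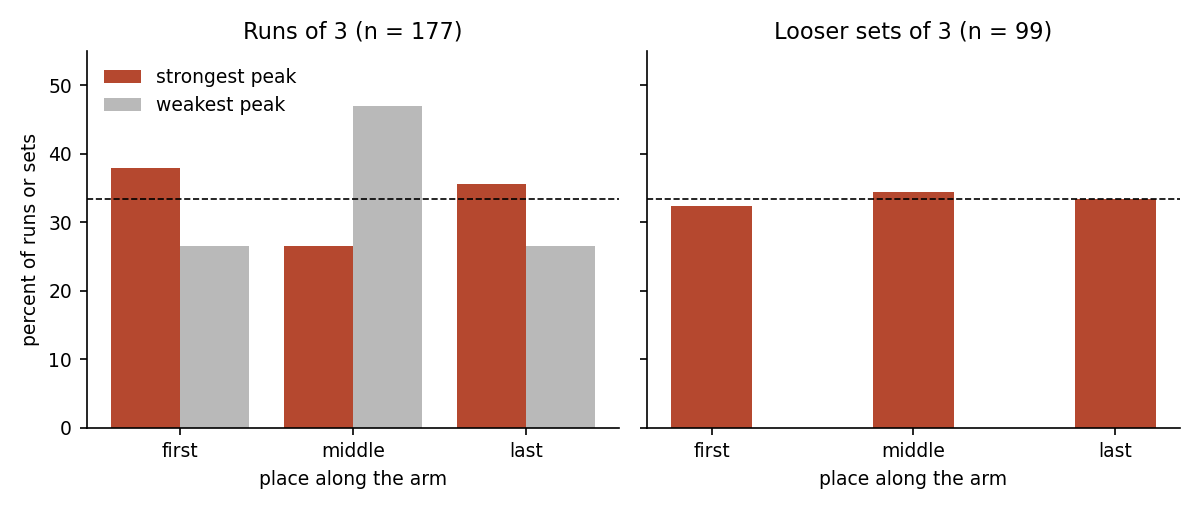
Percent of runs of 3 (left, n = 177) or of looser sets of 3 (right, n = 99) by the place, along the arm, of the strongest peak and, at left, of the weakest peak; the dashed line marks an even split of 33.3%. In runs of 3 the middle place held the strongest peak in 26.6% and the weakest in 46.9%, while the looser sets had 32, 34 and 33 strongest peaks by place.

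In runs of 4 and of 5 the strongest peak was inside the run in a share whose interval included an even split. It was inside in 21 of 47 runs of 4 (44.7%, interval 30.2% to 59.9%, even split 50%) and in 12 of 26 runs of 5 (46.2%, interval 26.6% to 66.6%, even split 60%). It was also inside in 4 of the 7 runs of 6 and in both runs of 7. In the run of 7 that began at 711121 on 2R, a peak inside tied with the last peak at 20.44 and was counted. Over all lengths the strongest peak came first in 86 runs, inside in 86 (33.2%) and last in 87. An even split over places would put it inside in 40.2% of runs, and no interval was computed for this total. The strongest and the second peak were direct neighbours in 94 of 177 runs of 3 (53.1%, where an even share of orders would give 66.7%). For runs of 3 this is not a separate result, because it is fixed by how often the weakest peak was in the middle. The strongest and the second peak were neighbours in 16 of 47 runs of 4 (34.0%, 50%) and in 4 of 26 runs of 5 (15.4%, 40%). Their centres lay a median of 1628 bp apart, with a middle range of 1189 to 2290 bp. Over the 646 pairs of neighbours within runs, scores had a Spearman's rho of -0.229. The same value was -0.164 over 720 chains of 2 narrow peaks and 0.070 over 1627 neighbouring narrow peaks 1000 to 5000 bp apart. All 3 sets share the same libraries, and pairs within a run share peaks.

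The scores of run peaks lay between those of other kinds of narrow peaks. Their median was 18.36, against 30.48 for the 3893 narrow peaks that stood alone, 21.00 for the 1580 narrow peaks in chains of 2 and 14.15 for the 279 narrow peaks in longer chains with a wide peak. These chains of 2 include those in which the other peak was wide. Of the run peaks 41.1% lay at or below the lower quartile of arm scores, 14.77. The share was 36.2% of those in chains of 2, 19.1% of those alone and 53.0% of those in chains with a wide peak. Scores below 10 were found in 153 of 905 run peaks (16.9%) and in 9.20% of all arm peaks. The arm total includes 646 wide peaks, none of which scored below 17.68. The strongest peaks had a median of 49.27 and the other 646 run peaks one of 13.55, a split that taking the maximum of each run makes by construction. Median widths had the same order, at 731 bp alone, 571 bp in chains of 2, 543 bp in runs and 464 bp in chains with a wide peak.

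**Figure D4:**
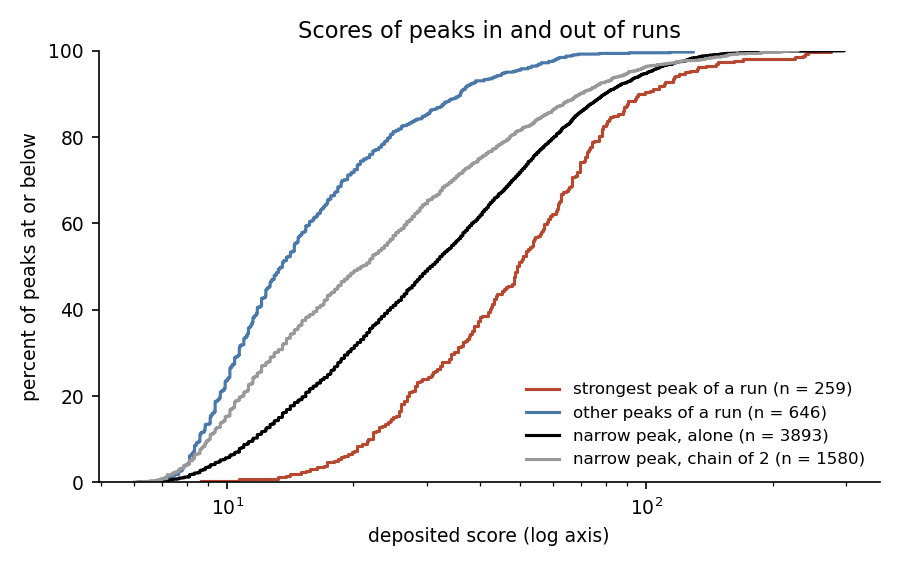
Percent of peaks (vertical axis) with a score at or below the value on the horizontal log axis, for the strongest peak of each run (n = 259), the other run peaks (n = 646), narrow peaks alone (n = 3893) and narrow peaks in chains of 2 (n = 1580, with a partner of any width). Medians are 49.27, 13.55, 30.48 and 21.00; the strongest and the other peaks of a run are set apart by construction.

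Gaps inside runs were mostly below 500 bp. The 646 gaps had a median of 263 bp and a middle range of 129 to 479 bp, and 127 of them (19.7%) were shorter than 100 bp. The shortest was 50 bp, which was also the smallest gap in the whole arm list, and whether the peak calling set this floor is not known. Gaps beside the strongest peak (345, median 258 bp) and other gaps within runs (301, median 264 bp) were alike in size. Chains of 2 narrow peaks had a median gap of 233.5 bp. Peak centres within runs followed each other at a median of 976 bp. On the arms as a whole, gaps numbered 367 below 100 bp, fell to 106 between 500 and 599 bp and then stayed between 49 and 88 per 100 bp up to 2000 bp.

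**Figure D5:**
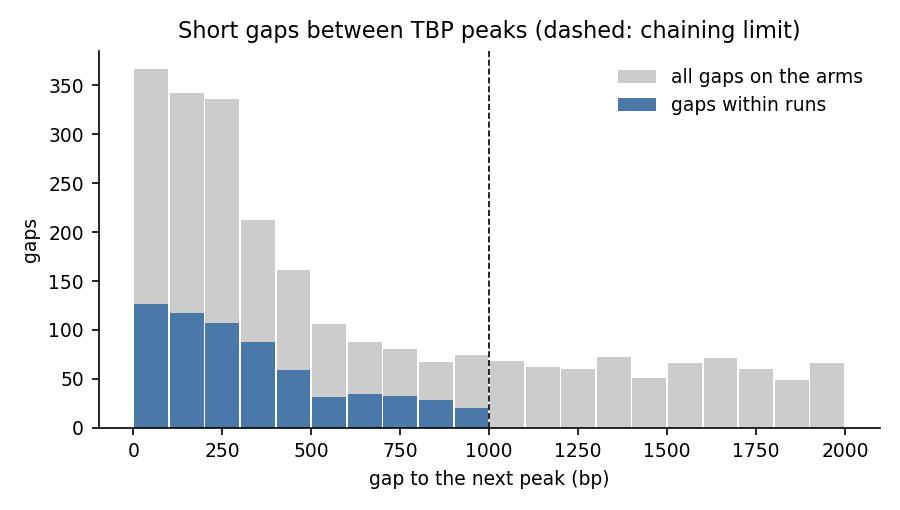
Number of gaps between neighbouring peaks (vertical axis) per 100 bp of gap length, for all gaps on the arms (grey) and gaps within runs (blue); the dashed line marks the limit of 1000 bp. Counts on the arms fall from 367 in the first bin to 106 at 500 to 599 bp and show no step at the limit, with 74 gaps just below it and 68 just above.

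The limits of the rule cut through a continuous range. The largest gaps kept in a run were 999 bp, and the smallest gap that ended a chain was 1000 bp. Of the runs, 20 contained a gap of at least 900 bp. The widest peak in a run measured 1977 bp (3L 1334045 to 1336021, score 85.54), and 7 run peaks were 1900 bp or wider. Among 370 chains of at least 3 peaks, 111 with 432 peaks were left out because of a wide peak, and 91 of those had exactly 1. The narrowest such peak was 2001 bp, in a chain on 3R from 16382775 to 16387086. The strongest peak of the chains left out had a median score of 98.47. Each of these chains was left out for holding a wide peak, and all wide arm peaks had a median score of 85.54.

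The runs of 7 were low in score, and the runs of 6 differed among themselves. On 2R from 711121 to 717131, 7 peaks scored 20.09, 8.86, 15.4, 20.44, 10.69, 15.35 and 20.44. The highest value was shared by a peak inside the run and the last peak, which were 316 and 1237 bp wide. The other run of 7, on 2R from 4539336 to 4543920, scored 18.7, 9.11, 13.1, 15.42, 10.15, 20.44 and 7.66. No peak of either run reached the arm median of 28.43. Among runs of 6, the one on 3L from 19993980 to 20000349 was the strongest, with scores of 39.2, 8.13, 35.17, 12.95, 88.57 and 55.29. Strong and weak peaks alternated over its first 4 places. The run of 6 with the longest span, 6646 bp, lay on 2L from 7502635 to 7509280, and its scores ran from 8.63 to 37.39.

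Several runs of 6 had their strongest peak last, behind a string of weak ones. On 2L from 7423213 to 7427717, 5 peaks of 7.79 to 13.55 were followed by 1 of 43.86. On 3L from 1329732 to 1336021, scores of 35.74, 9.16, 10.28, 14.66 and 8.34 preceded a last peak of 85.54. On X from 8979918 to 8984200, the end peaks scored 24.88 and 48.71 and the 4 between them 6.97 to 9.89. In all 3 runs the last peak was the widest, at 1300, 1977 and 1486 bp. The run of 6 on X from 19556956 to 19562901 instead peaked at its second place, with scores of 11.24, 42.44, 14.46, 9.11, 10.15 and 29.65.

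The last 6 peaks of 3R formed the run with the most even steps. They lay from 27899124 to 27904648 and scored 36.22, 42.58, 27.94, 36.17, 29.06 and 36.47. Their widths were 577, 583, 613, 677, 582 and 605 bp. Steps from start to start were 979, 973, 982, 1005 and 981 bp, or 984 ± 12.2 bp (SD over 5 steps). The coefficient of variation of these steps was 1.24%. Among the 82 runs of at least 4 peaks the next lowest was 15.7%, on 3L from 11082939 to 11086952, and the median was 53.2%. Its widths (6.19%) also varied least among those 82 runs, whose median was 66.4%. Its weakest peak of 27.94 was exceeded by the weakest peak of 4 of the 259 runs. The peak before the run, a weak one of 15.08 and 526 bp, began 1994 bp before it. Step regularity was looked at after the positions had been seen, and the sequence beneath the peaks was not used here.

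Runs also closed or opened other arms. The first 3 peaks of 2L, from 17887 to 22055, were a run with scores up to 64.86. The last 3 peaks of 2R, from 21144845 to 21146387, were another, with scores of 14.15, 18.53 and 38 and a span of 1543 bp. The gaps of that run were 487 and 112 bp and so were uneven.

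A strong run lay next to the longest chain that the width limit left out. That chain held 21 peaks on 2L from 21450265 to 21539505, 18 of them at least 2000 bp wide, with a median score of 208.71 and a highest of 238.1. The run began 1349 bp further on, from 21540855 to 21543690. Its peaks scored 238.88, 45.02 and 58.35 over 999, 722 and 944 bp. The first of them was thus slightly above every peak of the chain, at a width well under that chain's median of 4327 bp, and its weakest peak was far above the median weakest score of 10.07.

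The runs picked for the shortest spans or for the lowest ratios of strongest to weakest score spanned at most 2173 bp. The shortest, 953 bp on 2R from 10048454 to 10049406, had scores of 8.58, 8.67 and 7.26. Next to it in span came 3R 22542746 to 22543931 (1186 bp; scores of 9.63, 22.62 and 20.44) and 2R 17962585 to 17964053 (1469 bp; 8.61, 10.15 and 30.06). On 3L from 3394196 to 3395750 the scores were 9.36, 10.42 and 10.68. On X from 11699099 to 11701271 they were 17.35, 16.69 and 16.04. On 2L from 20994288 to 20996098 the scores were 11.81, 11.74 and 13.25, and on 2R from 18129534 to 18131659 they were 23.74, 28.43 and 27.22.

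Runs occurred on all 6 arms, and chromosome 4 had the largest share of its peaks in them. There 26 of 108 peaks (24.1%) lay in 8 runs, or 6.21 runs per Mb between the first and last peak. On the 5 long arms the share was 11.3% to 13.6%, and the density 1.79 (X) to 2.65 (2R) runs per Mb. Peaks of every kind also lay closer on chromosome 4, with 108 in 1.29 Mb against 7303 in 120 Mb over all 6 arms. Neither the share nor the density of runs was adjusted for this. The long arms held 46 runs on 2L, 56 on 2R, 52 on 3L, 57 on 3R and 40 on X. Chromosome 4 is the small, largely heterochromatic autosome of the fly, in which active genes sit among repeats. Median scores of run peaks were within 16.89 (3R) to 20.09 (3L) on all arms, and on each arm they were below the median of the other narrow peaks, which ran from 22.81 (chromosome 4) to 28.02 (3R). The strongest peak had a median of 41.05 on X, 42.71 on chromosome 4 and 58.95 on 3R, the highest.

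The 8 runs of chromosome 4 were short, with a median span of 2348 bp. Of these, 7 had 3 peaks. The strongest lay from 1000302 to 1001956, with 70.98 followed by 8.13 and 8.36. The runs at 886847 to 890003 (60.96, 20.8 and 9.36) and 486881 to 489060 (52.22, 13.55 and 15.08) also began with their strongest peak, as did that at 199581 to 201644 (37.84, 10.42 and 14.77). Those at 149803 to 153290 (8.61, 21.88 and 45.3) and 716597 to 718550 (10.15, 21.16 and 40.11) rose along the arm, and 509391 to 511905 was nearly level (24.12, 27.62 and 19.04). The run of 5 peaks, from 978204 to 980783, had scores of 10.42, 28.02, 16.12, 13.55 and 21.52 and narrow peaks of 223 to 302 bp. The next peak lay only 1002 bp beyond it, the closest outside peak of any run.

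On X, the strongest run lay from 658109 to 660247, and its scores of 17.35, 117.27 and 6.75 placed the strong peak in the middle. Along the long arms, the distance from first to last peak was cut into 4 equal parts, and each part held at least 7 runs. The share of peaks in runs was lowest in the last part of 2R, at 7.97%, and highest in its second part, at 17.7%.

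Most runs lay far from each other. From 1 run to the next on the same arm the median distance was 276 kb, and 11 of 253 pairs of neighbouring runs were less than 10 kb apart. Of the windows of 100 kb that held any run, 191 held 1, 28 held 2 and 4 held 3. The windows with 3 began at 6300001 and 15100001 on 2R, 11000001 on 3L and 10300001 on 2L. The nearest peak outside a run was a median of 3072 bp away, against 4237 bp for narrow peaks alone. It was within 5000 bp for 63.3% of runs and for 55.8% of those peaks. A wide peak lay within 5000 bp of 8.49% of runs and of 7.89% of narrow peaks alone. The most isolated run, on 3R from 6087081 to 6090942, had no other peak within 65636 bp.

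The closest pairs of runs were separated by little more than the chaining limit. On 3R, 1026 bp separated the run at 4857430, described above, from 4 further peaks between 4862830 and 4866077, which scored 10.99, 12.37, 10.69 and 78.29. On 3L, 1326 bp lay between runs of 5 peaks each, at 10840878 to 10845937 and 10847264 to 10852101. The first had no peak above 26.04, and the second had scores of 12.08, 21.88, 15.4, 94.71 and 20.58. Also on 3L, 1350 bp lay between the run at 14959207 to 14963259, with 11.52, 48.71 and 236.72, and the alternating run of 4 that began at 14964610.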

How the data were processed

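DNA bound by TBP and input DNA (2 libraries each) were sequenced. A single peak list in GFF version 3 covers the series. Its coordinates are FlyBase release 5 and its peaks were made with MACS, per the file headers. BWA, MACS2, the build BDGP5 and CASAVA (1.7.0.2, 1.7.0.3) appear in the submitters' processing notes, with no role stated. The score was deposited by the authors with no stated scale. The sources used here do not give the threshold, the handling of duplicates or the pooling of replicates. Each of these can split, merge or drop weak neighbouring peaks and so change the runs. No depth is known, and the counting error of the reads behind each score could not be estimated.

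Peaks were sorted by start and chained where next start minus end minus 1 was under 1000 bp. The chaining was tested on simulated data. The runs named in the text were those with most peaks, highest scores, extreme spans or extreme ratios of strongest to weakest score, the top of each arm and the closest pairs. The chromosome 4 runs, runs at arm ends, the run nearest the longest chain left out, isolated runs, looser sets, step regularity and positions along arms were added after the values had been seen. The members and lists were chosen with earlier results of these data known. The gene table supplied belongs to release 6 and was not used. Software was matplotlib 3.10.9, pandas 2.3.3, scipy 1.17.1, numpy 2.4.6 and Python 3.11.15. Alternatives changed the gap, width, length and score limits.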

Additional observations from a re-analysis of the deposited data

How the results depend on the processing

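No paired analysis was possible because the list has no values per library, and no replicate could be left out for the same reason. Shares and medians were called moved outside their 95% binomial or order-statistic interval, which treats peaks as independent, and counts when over 1.5 times different. Of 42 alternatives, 27 moved, and some of these moves were set by the limit itself. A minimum of 4 peaks removes every run of 3, and a score limit removes the weak peaks. The count of moves is therefore not a measure of stability. Stricter score limits removed most runs, and losing 1 peak is enough to end a run of 3. Unknown depth limits every statement about weak peaks. With gaps under 500 bp there were 170 runs with 571 peaks (7.82% of arm peaks, median span 2754 bp). With gaps under 2000 bp, runs held 1412 peaks (19.3%, span 4042 bp). With peaks under 1500 bp the share was 9.02% and the span 2777.5 bp. Without a width limit they were 18.3% and 3722.5 bp. With at least 4 peaks, 82 runs held 374 peaks (5.12%, span 4313.5 bp, median score 16.88). Among arm peaks above the lower quartile of scores, 55 runs held 175 peaks (3.20%, span 3490 bp, median score 27.62). Above the median score, 11 runs held 35 peaks (0.959%, span 4697 bp, median score 46.26). The share of runs of 3 with the strongest peak in the middle stayed between 22.9% and 28.7% under 6 alternatives, including 141 runs whose strongest peak led the second by at least 1.2 times (25.5%, chosen after seeing the data). It was 11.1% of 9 runs above the median score.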

Other observations

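Outside the arms, the same rule returned 1 run on 2LHet, 1 on 3LHet and 2 on U. It returned none among the 384 peaks of Uextra, a collection of unplaced sequence.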
